A study of Mus musculus with 23 samples.

Results

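The genes described here are 10 genes of the blood vessel lining: Apold1, Klf2, Klf4, Nos3, Thbd, Cldn5, Cdh5, Pecam1, Kdr and Tie1. Through them endothelial cells respond to the flow of blood, hold their barrier and keep blood from clotting. They were taken by name from a table of 14500 genes measured in mouse muscle, and all 10 were present. Genes were tested where 2 or more libraries reached 1 FPKM, and all 10 were among the 12820 genes tested. FPKM counts sequenced fragments per kilobase of exon, scaled to the depth of the library, so levels of different genes can be compared. Apold1, Klf2 and Cldn5 were chosen by their measured log2 FPKM difference between times of day in this same table. Their time differences are therefore given as values with no test. The same holds for their differences between 6-OHDA and sham muscle at a single time, which use the same sham libraries. The other 7 genes were tested in every comparison.

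RNA came from whole tibialis anterior, the fast muscle at the front of the shin, of freely fed female C57BL/6 mice at zeitgeber time (ZT) 0, lights on, and ZT12, lights off. Wild-type sham muscle gave 4 libraries at ZT0 and 3 at ZT12, from mice of 12 to 18 weeks. Wild-type 6-OHDA muscle gave 4 libraries at each time, at 15 to 16 weeks for ZT0 and 12 to 15 weeks for ZT12. RE-RE mice carried Hsa-Cre(-/tg) and Syt10-Cre(-/tg) on Bmal1(stopFL/stopFL) and gave 2 libraries at each time under each treatment, at 10 to 11 weeks for sham and 12 to 18 weeks for 6-OHDA. In these mice Bmal1, also called Arntl, is blocked by a stop cassette that each Cre can remove. Hsa-Cre acts in skeletal muscle fibres and Syt10-Cre in the suprachiasmatic nucleus and other neurons, and neither driver is one used for endothelium. Treated muscle received repeated injections of 50 mg/kg 6-OHDA, which destroys sympathetic nerve endings, over 2 weeks, followed by 2 weeks of recovery. Sham muscle was not injected, so 6-OHDA, its ascorbic acid solvent and the needle cannot be told apart. Libraries of different age within a group came from separate mice, but nothing says so for those of equal age. The p-values therefore measure the spread between these libraries.

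Flowing blood drags on the endothelium, and this shear is passed through the kinases MEKK3, MEK5 and ERK5 to MEF2 factors, which switch on KLF2 and KLF4. These transcription factors in turn raise endothelial nitric oxide synthase, which relaxes vessels, and thrombomodulin, which restrains clotting. Sympathetic nerves narrow the arterioles of muscle and so set how much blood flows through its capillaries. The barrier itself is held by tight junctions built on claudin-5 and by adherens junctions built on VE-cadherin.

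The table gives no read counts. Reads recovered from the steps between its smallest values came to between 21.0 and 35.9 M per library. Apold1, the least abundant gene of the set, rested on 54 to 584 reads per library, and Cdh5, the most abundant, on 621 to 8389. Endothelial markers were present in every library, with all 20 genes of a pan-endothelial list past the filter. Arntl did not overlap between ZT0 and ZT12 within any genotype and treatment, which checks the time labels. Libraries 1 and 3 of RE-RE sham muscle had the lowest pan-endothelial mean, at 1.75 and 1.57 log2 FPKM against 2.22 to 3.01 in the other libraries. The library labelled RE-RE 6-OHDA 2 had the lowest summed macrophage markers of all libraries, at 19.0 FPKM against 82.8 to 311 in the other RE-RE 6-OHDA libraries. Calls and list counts that rest on these 3 libraries are given with and without them. They were set apart by endothelial or macrophage levels, so leaving them out shifts differences in such genes by that choice. In whole muscle, fewer endothelial cells and less RNA per cell cannot be told apart.

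The promoters of Klf2 and Klf4 are shown because both genes were lower at ZT12 in wild-type sham muscle, Klf2 as a gene picked for it. Both stretches lie directly upstream of the annotated exons and come from RefSeq (GRCm38.p6), which held promoters for 6 of the 10 genes. They are written 5′ to 3′ on the gene's strand. The Klf2 stretch is chr8:72318812-72319032 on the plus strand, and its capitals mark a match to the MEF2 consensus, at 72318944 to 72318953. That consensus was searched after the sequence had been seen. The Klf4 stretch is chr4:55532476-55532725 on the minus strand, and its capitals mark an E-box, CACGTG, the sequence that the clock's activators recognise.
Klf2 promoter: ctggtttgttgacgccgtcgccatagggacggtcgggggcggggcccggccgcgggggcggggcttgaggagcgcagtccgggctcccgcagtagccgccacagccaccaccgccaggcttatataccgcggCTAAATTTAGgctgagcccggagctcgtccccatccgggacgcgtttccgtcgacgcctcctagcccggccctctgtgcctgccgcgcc
Klf4 promoter: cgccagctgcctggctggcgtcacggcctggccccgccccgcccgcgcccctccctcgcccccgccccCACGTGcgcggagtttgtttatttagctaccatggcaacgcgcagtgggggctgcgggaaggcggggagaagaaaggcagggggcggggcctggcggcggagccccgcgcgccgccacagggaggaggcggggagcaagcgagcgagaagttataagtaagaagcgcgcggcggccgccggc
The MEF2 consensus was present in 3.19% of 32851 promoters of the same length and the E-box in 7.15%, both strands searched. The MEF2 site TATTTATA (1.70% of promoters), the cAMP response element TGACGTCA (1.79%) and the CArG box of serum response factor (1.63%) matched none of the 6 promoters, those of Klf2, Klf4, Apold1, Cldn5, Kdr and Tie1. The KLF box CCACCC, held by 31.5% of promoters, was present in those of Tie1, Kdr and Klf2. A match describes the letters of the window only.

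**Figure D1:**
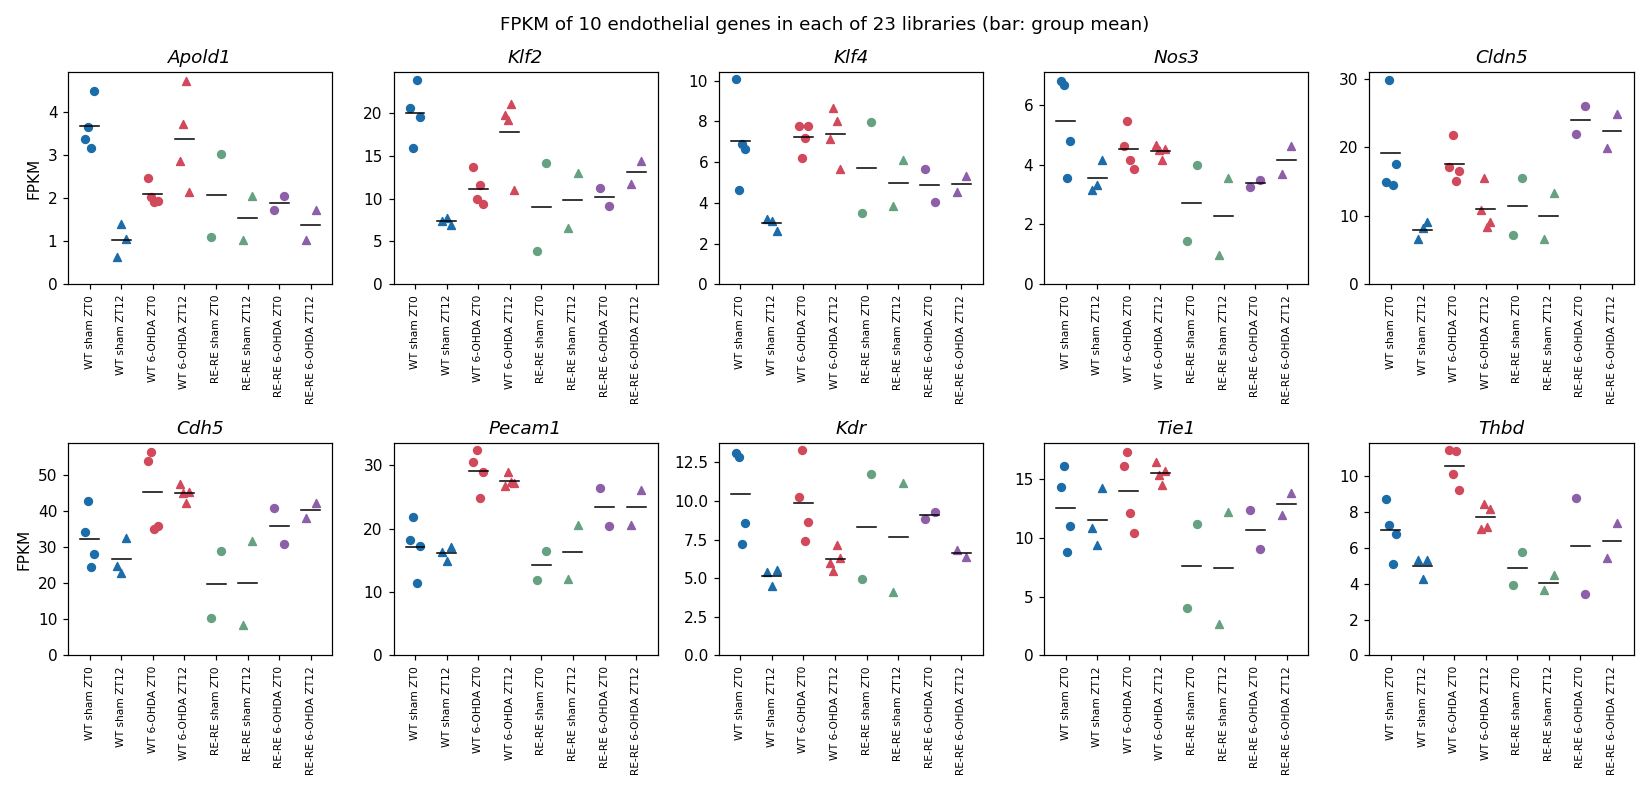
FPKM of the 10 genes in each of the 23 libraries, 1 panel per gene, with groups on the x axis and a bar at the group mean. Circles are ZT0 and triangles ZT12. Apold1, Klf2, Klf4 and Cldn5 of wild-type sham muscle are lower at ZT12 than at ZT0, and RE-RE sham muscle has 1 low and 1 high library at each time.

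Levels ran from 0.626 FPKM of Apold1 to 56.3 FPKM of Cdh5 in single libraries. Over the 23 libraries the median was 34.9 FPKM for Cdh5, 20.6 for Pecam1, 15.1 for Cldn5, 12.2 for Tie1 and 11.7 for Klf2. It was 7.22 for Kdr, 7.04 for Thbd, 6.08 for Klf4, 4.16 for Nos3 and 2.04 for Apold1. The highest library exceeded the lowest 7.54-fold for Apold1, 7.03-fold for Nos3, 6.78-fold for Cdh5 and 2.82-fold for Pecam1, the steadiest of the set. With the 8 group means of each gene put in order, the ranges of neighbouring groups overlapped in all but 4 of 70 pairs. The 4 were Klf4 in RE-RE 6-OHDA muscle at ZT0 over wild-type sham muscle at ZT12, Thbd in wild-type 6-OHDA muscle at ZT0 over ZT12, Cdh5 in wild-type over RE-RE 6-OHDA muscle at ZT12, and Pecam1 in wild-type 6-OHDA muscle at ZT12 over RE-RE 6-OHDA muscle at ZT0.

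The contrast of lights off with lights on in uninjected wild-type muscle asks whether the vessel genes vary with time of day. Apold1, Klf2 and Klf4 were lower at ZT12, as was Cldn5 of the barrier, while the differences of Cdh5, Pecam1 and Tie1 were smaller than their standard errors. Of the 7 genes tested, Klf4 fell and no other passed, where 0.647% of all genes passed and 0.382% were lower. The ranges of 5 of the 10 genes, Apold1, Klf2, Klf4, Cldn5 and Kdr, lay wholly lower at ZT12, as did those of 6.50% of all genes. Of these 5, Apold1, Klf2 and Cldn5 are the genes picked for time.

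Apold1 (ENSMUSG00000090698, GRCm38 chromosome 6, 134981718 to 134986836) encodes a protein of the endothelial membrane that is induced rapidly as an immediate early gene. Its level was 3.37, 3.65, 3.16 and 4.48 FPKM at ZT0 and 0.626, 1.40 and 1.05 at ZT12 in wild-type sham muscle. Every ZT12 library was below every ZT0 library, and the log2 difference was -1.89 ± 0.35 (SE). Klf2 (ENSMUSG00000055148, chromosome 8, 72319033 to 72321656), the transcription factor most closely tied to steady flow, measured 20.6, 15.9, 23.8 and 19.6 FPKM at ZT0 and 7.39, 7.79 and 6.89 at ZT12. The groups were again apart, at 20 ± 3.26 (SD, n = 4) against 7.36 ± 0.450 FPKM (SD, n = 3), a log2 difference of -1.43 ± 0.33 (SE).

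Klf4 (ENSMUSG00000003032, chromosome 4, 55527143 to 55532466), the close relative of Klf2 that shares many of its endothelial targets, was not picked for time. It measured 10.1, 4.61, 6.88 and 6.66 FPKM at ZT0 and 3.21, 3.13 and 2.63 at ZT12. All 3 ZT12 libraries were lower than any ZT0 library, and the mean fell 2.28-fold (-1.19 ± 0.27 SE on the log2 scale, limma adjusted p = 0.0446). The call ended without ZT0 library 1, 3 or 4 (adjusted p = 0.138, 0.111 and 0.108) or ZT12 library 5, 6 or 7 (0.131, 0.147 and 0.269), and with own totals of recovered reads (log2 -1.16, 0.158). Macrophages can express Klf4 too, and of 10 macrophage markers 0 passed in limma (1 at an unadjusted p under 0.05), with a summed level of 29.9 to 66.8 FPKM at ZT0 and 25.5 to 45.2 at ZT12. The part of these cells in the result was not tested.

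The targets of these factors differed less. Nos3 (ENSMUSG00000028978, chromosome 5, 24364810 to 24384474), which makes nitric oxide in endothelium, measured 6.81, 6.67, 3.56 and 4.79 FPKM at ZT0 and 3.16, 3.3 and 4.17 at ZT12. The groups overlapped, and the log2 difference of -0.58 ± 0.35 (SE) did not pass (limma adjusted p = 0.963). Thbd (ENSMUSG00000074743, chromosome 2, 148404466 to 148408188), thrombomodulin, had a log2 difference of -0.47 ± 0.24 (SE), from 6.97 ± 1.5 FPKM (SD, n = 4) to 4.97 ± 0.603 (SD, n = 3), with overlapping ranges (limma adjusted p = 0.816).

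Of the junction genes, Cldn5, picked for time, differed most. Cldn5 (ENSMUSG00000041378, chromosome 16, 18776847 to 18778262) encodes claudin-5, the tight junction protein that seals endothelium. It measured 15.0, 29.9, 14.4 and 17.6 FPKM at ZT0 and 6.54, 8.15 and 9.17 at ZT12. The ZT12 libraries were all lower, and the log2 difference was -1.22 ± 0.30 (SE). Cdh5 (ENSMUSG00000031871, chromosome 8, 104101625 to 104144511), VE-cadherin of the adherens junction, measured 34.1, 42.6, 24.3 and 28.0 FPKM at ZT0 and 24.9, 22.7 and 32.6 at ZT12. Its groups overlapped, with a log2 difference of -0.26 ± 0.36 (SE). Pecam1 (ENSMUSG00000020717, chromosome 11, 106654217 to 106750628), an adhesion molecule at cell borders, had a log2 difference of -0.06 ± 0.20 (SE) with a 95% confidence interval of -0.48 to 0.36.

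Of the receptors, Kdr (ENSMUSG00000062960, chromosome 5, 75932827 to 75978458), VEGF receptor 2, measured 13.1, 12.8, 7.22 and 8.60 FPKM at ZT0 and 5.41, 4.46 and 5.50 at ZT12. The ZT12 libraries were all lower, but the log2 difference of -0.99 ± 0.31 (SE) did not pass (limma adjusted p = 0.232). It passed without the 3 RE-RE libraries (0.0254, with 1.69% of genes called), which share the estimate of spread but are not in the comparison, and with array weights (0.00786, with 5.51% called). With only the 7 libraries compared, neither Klf4 nor Kdr passed, and 0.952% of genes did. Tie1 (ENSMUSG00000033191, chromosome 4, 118471191 to 118490061), a receptor kinase that modulates angiopoietin signalling, had a log2 difference of -0.11 ± 0.39 (SE) with overlapping ranges.

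The lists around these genes held few changes at this contrast. Of 20 pan-endothelial genes 0 passed in limma (2 at an unadjusted p under 0.05), with a median log2 difference of -0.15 against -0.01 over all genes tested, and 16 of 20 were below 0. None of 12 genes upstream of KLF2 and KLF4 passed (median -0.13, 0 at an unadjusted p under 0.05), and none of 13 nitric oxide genes (median -0.14, 0 likewise). The same held for 16 other flow-regulated endothelial genes (2 at an unadjusted p under 0.05), 12 junction partners (1) and 13 VEGF and angiopoietin genes (2). Mapk7, which encodes ERK5, was at -0.52 on the log2 scale (limma adjusted p = 0.918), and Apln, the ligand apelin, at -1.11 (0.0598). Of 15 immediate early genes 1 fell, Ier2 (-0.89 ± 0.18 SE, limma adjusted p = 0.0251), with a list median of -0.47. Taken relative to the mean of the pan-endothelial list in each library, the differences were -1.74 for Apold1, -1.28 for Klf2, -1.07 for Cldn5 and -1.04 for Klf4, whose adjusted p was then 0.161 in limma.

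**Figure D2:**
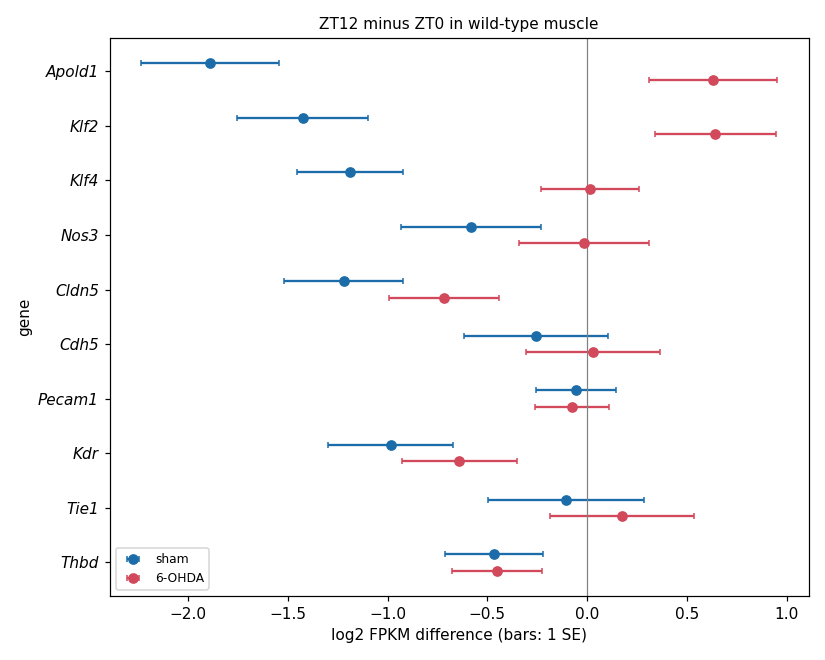
Difference between ZT12 and ZT0 in wild-type muscle for each gene, in log2 FPKM, for sham (blue) and 6-OHDA muscle (red). Points are limma estimates and bars 1 SE. Apold1 and Klf2 lie at -1.89 and -1.43 in sham muscle and at 0.63 and 0.64 in 6-OHDA muscle, and Cldn5 and Kdr lie below 0 in both.

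In 6-OHDA muscle Apold1 and Klf2 had their higher mean at ZT12, Klf4 had nearly the same mean at both times, and Cldn5 was again lower at ZT12. None of the 7 genes tested passed in limma there, where 0.671% of all genes did, and 1 of the 7, Kdr, had an unadjusted p under 0.05. These mice were 15 to 16 weeks old at ZT0 and 12 to 15 at ZT12. Age and time can thus hardly be told apart here, nor in the change of the time difference given below. With age as a covariate 0.265% of all genes passed. By overlap, 2 of the 10 genes, Kdr and Thbd, lay wholly lower at ZT12, against 3.27% of all genes.

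Apold1 measured 2.46, 2.03, 1.91 and 1.94 FPKM at ZT0 and 2.85, 3.72, 4.72 and 2.14 at ZT12 after 6-OHDA. The ZT12 libraries were mostly higher, with library 8 inside the ZT0 range, and the log2 difference was 0.63 ± 0.32 (SE). Klf2 measured 13.7, 9.91, 11.6 and 9.36 FPKM at ZT0 and 19.7, 19.2, 21.0 and 11.0 at ZT12. Libraries 5, 6 and 7 were above all ZT0 libraries and library 8 was among them, for a log2 difference of 0.64 ± 0.30 (SE). Klf4 measured 7.77, 6.18, 7.17 and 7.80 FPKM at ZT0 and 7.13, 8.64, 8.02 and 5.64 at ZT12, with overlapping groups and a log2 difference of 0.01 ± 0.25 (SE).

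Cldn5 measured 17.2, 21.8, 15.1 and 16.5 FPKM at ZT0 and 10.8, 15.5, 8.36 and 9.11 at ZT12. Its ranges overlapped slightly, with a log2 difference of -0.72 ± 0.28 (SE). Kdr measured 10.2, 13.3, 7.40 and 8.64 FPKM at ZT0 and 5.99, 5.45, 7.14 and 6.29 at ZT12. Each ZT12 library was lower, but the difference of -0.64 ± 0.29 (SE) did not pass (limma adjusted p = 0.630). Thbd was lower in each ZT12 library, at 7.71 ± 0.699 FPKM against 10.6 ± 1.06 at ZT0 (SD, n = 4 each), and did not pass (-0.45 ± 0.23 SE, limma adjusted p = 0.730).

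The change of the time difference with 6-OHDA was 2.52 ± 0.47 (SE) for Apold1, 2.07 ± 0.45 for Klf2 and 0.50 ± 0.41 for Cldn5 on the log2 scale, given as descriptions. For Klf4 it was 1.20 ± 0.36 (SE), which did not pass (limma adjusted p = 1, unadjusted p = 0.00369). None of the 7 genes tested passed in limma (1 at an unadjusted p under 0.05), and 0.00780% of all genes did, which is 1 gene. The estimates for Cdh5, Pecam1, Kdr, Tie1, Nos3 and Thbd lay between -0.02 and 0.57.

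At single times, 6-OHDA and sham muscle differed in opposite directions for Apold1 and Klf2. At ZT0, all 4 libraries of 6-OHDA muscle were below all 4 of sham muscle for both genes, with log2 differences of -0.80 ± 0.32 and -0.84 ± 0.30 (SE). At ZT12, all 4 were above all 3 of sham muscle, with differences of 1.71 ± 0.35 and 1.23 ± 0.33 (SE). Klf4 did not differ in this way, at 0.08 at ZT0 and 1.28 ± 0.27 (SE) at ZT12 (limma adjusted p = 0.101).

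By overlap, 8 of the 10 genes were wholly higher in 6-OHDA than in sham muscle at ZT12, all but Cldn5 and Kdr, as were 20.6% of all genes. At ZT0, Pecam1 and Thbd were wholly higher, as were 16.0% of all genes, and Apold1 and Klf2 wholly lower, as were 16.1%. Apold1 and Klf2, which are also among the 8 at ZT12, were picked for a time difference in this table. These comparisons share the sham libraries, so their place in both counts is not independent of that choice. By test, 1 of the 7 genes rose at ZT0, Pecam1 (0.79 ± 0.19 SE, limma adjusted p = 0.0106), where 23.8% of all genes passed and 13.6% rose. At ZT12, 0 of the 7 passed in limma and 0.0156% of all genes did. At an unadjusted p under 0.05 there were 4 of the 7, Klf4, Cdh5, Pecam1 and Thbd. With only the 7 libraries compared, 5 of the 7 passed at ZT12, Klf4, Cdh5, Pecam1, Tie1 and Thbd, where 26.4% of all genes did. Without the 3 RE-RE libraries those of an unadjusted p under 0.05 passed, against 14.6% of all genes, and with array weights 6 passed, against 38.1%. At ZT0 these settings gave 2, 3 and 3 of the 7, against 32.9%, 41.0% and 48.3% of all genes.

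Taken over both times, 6-OHDA muscle of wild-type mice had higher levels of Pecam1 and Thbd of the endothelial surface and of Klf4. Pecam1, Klf4 and Thbd rose, 3 of 10 genes, where 34.8% of all genes passed and 18.8% rose. Their share is therefore near that of the table as a whole. Markers of other cells moved in the same comparison, and more strongly.

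Pecam1 measured 18.2, 21.8, 11.5 and 17.2 FPKM in sham and 30.5, 32.5, 24.8 and 28.9 in 6-OHDA muscle at ZT0. At ZT12 it measured 16.3, 15.0 and 17.1 in sham and 26.7, 29.0, 27.3 and 27.3 in 6-OHDA muscle. Every 6-OHDA library was above every sham library, and Pecam1 rose 1.72-fold (0.78 ± 0.14 SE on the log2 scale, limma adjusted p = 0.00143). Thbd measured 8.73, 7.28, 5.10 and 6.77 FPKM in sham and 11.4, 10.1, 11.4 and 9.25 in 6-OHDA muscle at ZT0, and 5.30, 4.28 and 5.34 against 7.04, 8.44, 7.17 and 8.17 at ZT12. It was higher at each time without overlap and rose 1.54-fold (0.63 ± 0.17 SE, limma adjusted p = 0.00890). Klf4 rose 1.61-fold as a mean of both times (0.68 ± 0.18 SE, limma adjusted p = 0.00850), and its groups overlapped at ZT0 and were apart at ZT12.

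Cdh5 measured 53.9, 56.3, 34.9 and 35.7 FPKM at ZT0 and 47.4, 45.0, 42.2 and 45.3 at ZT12 in 6-OHDA muscle, against the sham levels of 22.7 to 42.6 FPKM given above. The groups overlapped at ZT0 and were apart at ZT12, and the difference of 0.63 ± 0.25 (SE) missed the threshold (limma adjusted p = 0.0567). It passed without sham ZT0 library 2 (0.0420), without 6-OHDA ZT0 library 4 (0.0495) and without the 3 RE-RE libraries (0.00188). The other 6 genes did not pass. Their log2 differences were 0.46 ± 0.24 for Apold1, 0.31 ± 0.27 for Tie1, 0.19 ± 0.22 for Klf2, 0.18 ± 0.20 for Cldn5, 0.11 ± 0.21 for Kdr and 0.05 ± 0.24 for Nos3 (SE). For Nos3 the 95% confidence interval was -0.45 to 0.55. Under other settings Cdh5 passed with quantile normalization (limma adjusted p = 0.0259), own totals of recovered reads (0.0140), array weights (2.03e-04) and only the wild-type groups (0.00213). Relative to the pan-endothelial mean the Cdh5 difference was 0.23 ± 0.14 (SE).

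**Figure D3:**
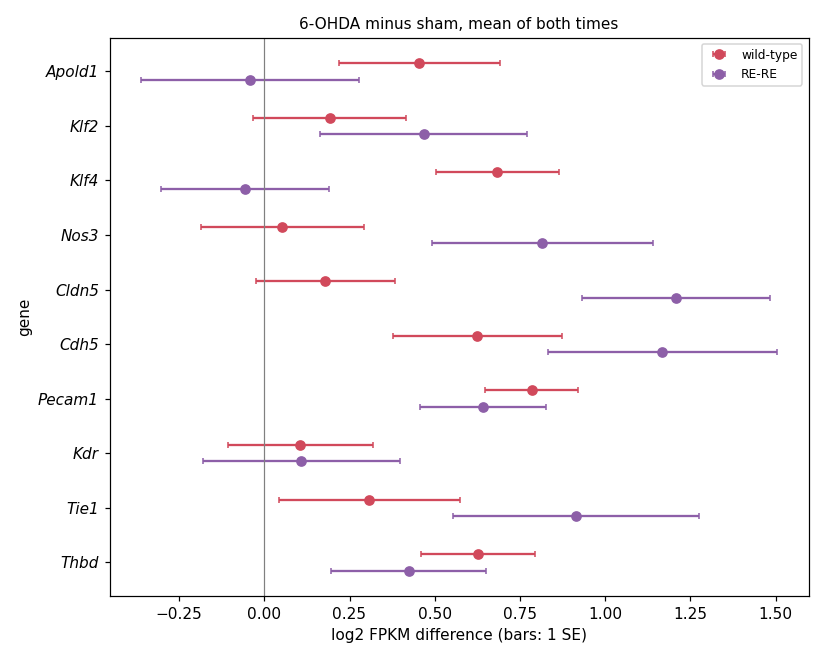
Difference between 6-OHDA and sham muscle for each gene as the mean of both times, in log2 FPKM, for wild-type (red) and RE-RE mice (purple). Points are limma estimates and bars 1 SE. Pecam1 lies at 0.78 in wild-type and 0.64 in RE-RE muscle, and Cldn5 at 0.18 and 1.21.

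The genes around them moved in part with 6-OHDA in wild-type muscle, where 34.8% of all genes passed and 18.8% rose. Of 20 pan-endothelial genes 9 rose and 0 fell, led by Clec14a (0.97 ± 0.16 SE) and Cd93 (0.91 ± 0.18), both of the endothelial surface, with a median of 0.38 against -0.04 over all genes. Of 16 flow-regulated genes 8 rose, with a median of 0.54, among them Gja5, a connexin of arterial endothelium (1.17 ± 0.18 SE), Plat, tissue plasminogen activator (1.13 ± 0.21), and Icam1, which binds leukocytes (1.01 ± 0.19). This list was not split into genes that flow raises and genes that it lowers, so its count and median give no direction of flow. Of 12 genes upstream of KLF2 and KLF4, 3 rose, Heg1, listed with the CCM complex (0.85 ± 0.15 SE), Mapk7 (0.77 ± 0.20) and Rap1b (0.44 ± 0.14). That count is near the share of all genes that rose, and the list median was -0.04. The upstream list was not split by whether a gene raises or lowers KLF2 and KLF4. Of 12 junction partners 5 rose (median 0.28), among them Nectin2 (0.88 ± 0.19 SE).

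Of 13 VEGF and angiopoietin genes 6 rose and 2 fell. Apln rose by 1.66 ± 0.18 SE on the log2 scale, and Vegfa, the main ligand of Kdr, fell by 0.97 ± 0.20. Of 13 nitric oxide genes 6 rose, among them Pde5a, which breaks down cyclic GMP (0.90 ± 0.19 SE), and Ddah2, which clears an inhibitor of the synthases (1.12 ± 0.25). Of 15 immediate early genes 6 rose, with a median of 0.40. Fos rose by 1.12 ± 0.27 SE.

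Other cell types moved in the same direction as Pecam1, Thbd and Klf4. Of 10 macrophage markers 9 rose, with a median of 2.08, and their summed level was 29.9 to 66.8 FPKM in sham and 212 to 511 in 6-OHDA muscle at ZT0, and 25.5 to 45.2 and 144 to 384 at ZT12. All 7 fibroblast markers rose (median 1.84), and 5 of 6 genes of satellite cells and regenerating muscle (median 2.17). Of 9 genes of fast fibres 6 fell and 1 rose (median -0.66). Of 11 mural cell markers 2 rose, near the 18.8% of all genes, and 1 fell (median 0.21). Prox1, which defines lymphatic endothelium, and Itga2b, which defines platelets, were under 1 FPKM in every library, but other genes of their lists moved. Of 3 lymphatic genes tested 1 rose, and of 2 platelet genes 1 rose and 1 fell. The summed lymphatic list was 4.09 to 6.91 FPKM in sham and 9.12 to 12.4 in 6-OHDA muscle at ZT0, and 3.98 to 5.23 and 5.64 to 9.72 at ZT12. The summed platelet list was 4.01 to 6.12 and 9.42 to 14.8 FPKM at ZT0, and 3.35 to 4.45 and 5.22 to 12.2 at ZT12. Macrophages and other blood cells also express Pecam1, Thbd and Klf4, and the part of these cells in the result was not tested. Relative to the mean of the pan-endothelial list, Pecam1 was higher by 0.39, Klf4 by 0.29 and Thbd by 0.23, and of these Klf4 and Thbd did not pass (limma adjusted p = 0.204 and 0.213).

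RE-RE muscle asks how these genes behave where Bmal1 is present in muscle fibres and neurons but not restored elsewhere. Its libraries spread more than those of wild-type mice for all 10 genes, with a residual SD for Tie1 of 0.95 against 0.30 log2 units and for Cdh5 of 0.87 against 0.29. The pooled errors are therefore too small for RE-RE and too large for wild-type comparisons.

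In RE-RE sham muscle the levels followed the library rather than the time. Klf2 measured 3.88 and 14.2 FPKM at ZT0 and 6.62 and 13.0 at ZT12. Apold1 measured 1.10 and 3.03 at ZT0 and 1.02 and 2.04 at ZT12. Cdh5 measured 10.4 and 29.0 at ZT0 and 8.31 and 31.7 at ZT12. In each pair the first value, from library 1 or 3, was the lower, as it was for all 10 genes. The log2 time differences were -0.34 ± 0.45 (SE) for Apold1, 0.32 ± 0.43 for Klf2, -0.18 ± 0.39 for Cldn5 and -0.13 ± 0.35 for Klf4. Leaving out 1 library moved these either way, for Klf2 from -0.61 without library 1 to 1.26 without library 2.

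None of the 7 genes tested passed in limma for time in RE-RE sham muscle, where 0.0546% of all genes did, or in RE-RE 6-OHDA muscle, where 0.109% did, and 0 had an unadjusted p under 0.05. Thbd passed in 6-OHDA muscle without library 1 (0.89, limma adjusted p = 0.0481). In RE-RE 6-OHDA muscle Klf2 measured 11.3 and 9.10 FPKM at ZT0 and 11.7 and 14.4 at ZT12, a difference of 0.36 ± 0.43 (SE). Apold1 measured 1.73 and 2.04 at ZT0 and 1.02 and 1.73 at ZT12, a difference of -0.50 ± 0.45. For Klf4 the values were 5.68 and 4.06 at ZT0 and 4.53 and 5.30 at ZT12, with overlap and a difference of 0.03 ± 0.35. By overlap Klf2 and Nos3 were higher at ZT12, as were 13.0% of all genes, and Apold1 and Kdr lower, as were 19.8%. Whether the time difference differed between genotypes was not tested.

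With 6-OHDA in RE-RE muscle, where some pan-endothelial genes rose as well (given below), Cldn5, Cdh5 and Pecam1 rose, 3 of 10 genes. Of all genes 26.9% passed and 11.9% rose. By overlap these 3 were wholly higher at ZT0, as were 10.4% of all genes, and they, Nos3 and Thbd at ZT12, as were 24.1%. Cldn5 measured 7.24 and 15.5 FPKM in sham and 21.9 and 26 in 6-OHDA muscle at ZT0. At ZT12 it measured 6.58 and 13.3 in sham and 19.9 and 24.8 in 6-OHDA muscle. Each 6-OHDA library was above each sham library, and Cldn5 rose 2.31-fold (1.21 ± 0.28 SE on the log2 scale, limma adjusted p = 0.0148).

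Cdh5 measured 40.7 and 30.9 FPKM at ZT0 and 38.0 and 42.2 at ZT12 in RE-RE 6-OHDA muscle, above the RE-RE sham libraries of the same time. It rose 2.25-fold (1.17 ± 0.34 SE, limma adjusted p = 0.0234). Pecam1 measured 12.0 and 16.5 FPKM in sham and 26.4 and 20.5 in 6-OHDA muscle at ZT0, and 12.1 and 20.6 against 20.6 and 26.1 at ZT12. The ranges were apart at ZT0 and barely so at ZT12, where the highest sham library had 20.62 FPKM and the lowest 6-OHDA library 20.63, and Pecam1 rose 1.56-fold (0.64 ± 0.19 SE, limma adjusted p = 0.0234).

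These 3 calls changed with the libraries left out. Without RE-RE sham 1 and 3 and RE-RE 6-OHDA 2, the log2 differences were 0.61 for Cldn5, 0.41 for Cdh5 and 0.42 for Pecam1, and 0 of the 10 genes passed (limma adjusted p = 0.134, 0.215 and 0.122), where 28.1% of all genes did. RE-RE sham 1 and 3 had been set apart by their low pan-endothelial mean, so leaving them out lowers an endothelial difference by that choice. RE-RE sham mice were 10 to 11 weeks old and RE-RE 6-OHDA mice 12 to 18, so age and treatment cannot be told apart within RE-RE. With age as a covariate the differences were 1.39, 1.37 and 0.75, and none of the 3 genes passed (limma adjusted p = 0.111, 0.120 and 0.122), where 0.0234% of all genes did. Without sham library 1 the differences of the 3 genes were 0.93, 0.80 and 0.53, and without sham library 3 they were 0.95, 0.68 and 0.45. Without 6-OHDA library 1 they were 1.27, 1.07 and 0.55, and without 6-OHDA library 4 they were 1.13, 1.13 and 0.56. The calls were lost each time, where 1 library was left in a group. Without sham library 2, Klf2 (0.93), Nos3 (1.18) and Tie1 (1.28) passed as well, and without sham library 4 Nos3 (1.28) and Tie1 (1.47). Without 6-OHDA library 2, Thbd passed (0.76, limma adjusted p = 0.0050). Relative to the pan-endothelial mean, Pecam1 was at 0.06 (limma adjusted p = 0.741).

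Nos3 and Tie1 did not pass with all libraries, at 0.82 ± 0.33 and 0.91 ± 0.36 (SE, limma adjusted p = 0.0653 and 0.0636). With the replicate number as a block, Nos3 passed (0.82, limma adjusted p = 0.0481). Same-numbered RE-RE libraries differed in age, so the block did not join muscles of the same mouse. Klf4 had a difference of -0.06 ± 0.25 (SE), Apold1 of -0.04 ± 0.32 and Klf2 of 0.47 ± 0.30, none past the test. Of 20 pan-endothelial genes 9 rose (median 0.66 against -0.02 over all genes), where 11.9% of all genes rose. They were led by Sox18, a transcription factor of vessel development (1.59 ± 0.33 SE). Macrophage markers had 0 of 10 past the limma test and 1 at an unadjusted p under 0.05 (median 0.49), with sums of 30.0 to 71.9 FPKM in sham and 19.0 to 284 in 6-OHDA muscle at ZT0, and 29.9 to 93.7 and 82.8 to 311 at ZT12. Without the 3 RE-RE libraries, 4 of the 20 pan-endothelial genes rose and 2 fell (median 0.28 against -0.10 over all genes), and 9 of the 10 macrophage markers rose (median 2.13). RE-RE 6-OHDA 2 had been set apart by its low macrophage sum, so leaving it out raises a macrophage difference by that choice. The part of macrophages in these results was not tested.

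The effect of 6-OHDA was not shown to differ between genotypes for any of the 10 genes, where 0.0702% of all genes passed in limma. Klf4 and Cldn5, 2 of the 10, had an unadjusted p under 0.05. For Cldn5 the RE-RE effect was 1.03 ± 0.34 (SE) larger on the log2 scale, with a 95% confidence interval of 0.31 to 1.75 (limma adjusted p = 0.225). For Klf4 it was -0.74 ± 0.30 (SE), with an interval of -1.38 to -0.10 (limma adjusted p = 0.280). Without the 3 RE-RE libraries the Cldn5 difference was 0.44 ± 0.34 (SE, limma adjusted p = 0.616) and that of Klf4 -1.08 ± 0.29 (0.126). Leaving out RE-RE sham library 2 let Cldn5 pass (0.0313), and leaving out library 4 let Cldn5, Nos3 and Tie1 pass (0.0338, 0.0344 and 0.0487).

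Between genotypes in sham muscle, 1 of the 10 genes passed, Nos3, where 9.91% of all genes did and 5.17% were lower. Nos3 measured 1.45 and 3.97 FPKM at ZT0 and 0.969 and 3.57 at ZT12 in RE-RE sham muscle, and its mean over both times was lower than in wild-type sham muscle (-1.02 ± 0.29 SE, limma adjusted p = 0.0378). The ranges overlapped at each time, since RE-RE libraries 2 and 4 lay within the wild-type values. RE-RE sham 1 and 3 had been set apart by their low pan-endothelial mean, so leaving them out shrinks a lower endothelial level by that choice. Without the 3 RE-RE libraries the Nos3 difference was -0.19 (limma adjusted p = 0.686). It also missed the threshold without wild-type ZT0 library 1 or 2 (0.0596 and 0.0728), ZT12 library 5, 6 or 7 (0.0582, 0.0542 and 0.0911), or RE-RE library 1 or 3 (0.267 and 0.318). Cdh5, Tie1 and Klf2 passed beside Nos3 without RE-RE library 2 (-1.15, -1.30 and -1.0) or library 4 (-1.27, -1.48 and -0.78).

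With all libraries these genes did not pass, at -0.93 ± 0.32 (SE) for Tie1, -0.78 ± 0.30 for Cdh5 and -0.54 ± 0.27 for Klf2. At ZT0, Apold1 and Klf2 of both RE-RE sham libraries lay below all wild-type sham libraries, as did 9.77% of all genes, both genes having been picked for a time difference. At ZT12, Klf4 of both RE-RE libraries lay above the wild-type range, as did 12.7% of all genes. Pan-endothelial genes were lower in the same comparison, 5 of 20 with 0 higher (median -0.34 against 0.03), led by Sox17 (-1.13 ± 0.23 SE) and Tal1 (-0.96 ± 0.26), transcription factors of endothelium and blood. Of 15 immediate early genes 4 fell (median -0.65). Without the 3 RE-RE libraries, 0 of the 20 pan-endothelial genes were lower and 1 was higher in limma (median -0.08 against 0.02, 6 at an unadjusted p under 0.05), and 0 of the 15 immediate early genes passed (median -0.19, 1 at an unadjusted p under 0.05). RE-RE sham 1 and 3 had been set apart by their low mean of this same pan-endothelial list, so its change follows from that choice. RE-RE sham mice were 10 to 11 weeks old and wild-type sham mice 12 to 18, so age and genotype cannot be told apart.

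In 6-OHDA muscle 0 of the 10 genes passed in limma between genotypes, where 0.226% of all genes did. Apold1, Klf4, Cldn5 and Thbd, 4 of the 10, had an unadjusted p under 0.05. Cldn5 of all 4 RE-RE libraries was above the wild-type libraries of its time, at 24.0 ± 2.93 against 17.6 ± 2.90 FPKM at ZT0 and 22.3 ± 3.49 against 10.9 ± 3.19 at ZT12 (SD, n = 2 against 4). The share of all genes wholly higher was 7.88% at ZT0 and 8.29% at ZT12. Its log2 difference of 0.76 ± 0.24 (SE) did not pass (limma adjusted p = 0.288), and it passed relative to the pan-endothelial mean (0.96, 0.0495). Klf4 was lower in all 4 RE-RE libraries, by -0.58 ± 0.21 (SE), and Thbd by -0.61 ± 0.20, with neither past the test (limma adjusted p = 0.394 and 0.302). Wholly lower were 3 of the 10 genes at ZT0, Klf4, Nos3 and Thbd, as were 6.96% of all genes, and 5 at ZT12, Apold1, Klf4, Cdh5, Pecam1 and Tie1, as were 13.6%. Macrophage markers were lower in the same comparison in median (-1.08), with 1 of 10 past the test, Cd163. Without the 3 RE-RE libraries their median was -0.12, again with 1 of 10 past the test. RE-RE 6-OHDA 2 had been set apart by its low macrophage sum, so leaving it out brings this median up by that choice. The part of macrophages was not tested. The Thbd difference was -0.95 without RE-RE 6-OHDA library 1, which had 8.77 FPKM where library 2 had 3.42. Without the 3 RE-RE libraries the Thbd difference was -0.27.

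Across the 23 libraries correlations among the 10 genes ran high in places. Apold1, Klf2 and Klf4 had Pearson r of log2 FPKM of 0.83 for Apold1 and Klf2, 0.77 for Apold1 and Klf4 and 0.76 for Klf2 and Klf4. Apold1 and Klf2 were both picked for a time difference in these libraries, so that choice enters their r. Cdh5, Tie1 and Nos3 had r of 0.96 for Cdh5 and Tie1, 0.93 for Nos3 and Tie1 and 0.87 for Nos3 and Cdh5. Lower values were 0.57 for Klf2 and Cdh5 and 0.45 for Apold1 and Cdh5. These values describe 23 libraries that share groups, depth and the amount of endothelium in the sample, and no test was made on them.

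Around their group means, the 15 wild-type libraries gave r of 0.97 for Cdh5 and Tie1, 0.92 for Nos3 and Tie1 and 0.82 for Cdh5 and Kdr. Klf2 had r of 0.62 with Klf4 and 0.48 with Apold1 there, Apold1 and Klf4 had 0.20, and Klf2 had -0.22 with Cdh5 and -0.32 with Nos3. Klf2 and its target Nos3 thus had a negative r within wild-type groups, but 0.66 over all libraries and 0.58 around the group means of both genotypes.

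The genes nearest to each pattern were ranked by r over the 23 libraries among 10855 other genes. For Apold1 they were Klf2, Klf4, Fos (0.75), Spry4 (0.71), which dampens growth factor signalling, and Ier2 (0.70), and Fos and Ier2 are immediate early genes. For Klf2, besides Apold1 and Klf4, they were Plekhf1 (0.74), Irf2bp2 (0.72) and Scarf1, a scavenger receptor of endothelium (0.71). For Cdh5 they were Cdc42ep1 (0.98), Prkd2, a kinase (0.97), Plekhg5, Pcdh1 and Hdac7, a histone deacetylase of endothelium (0.97 each). For Cldn5 they were Hexim1 (0.85), Bcl2l11 (0.83), Dhrs3, Rnf144a and Rflnb (0.81 each), and none of these is another gene of the 10.

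**Figure D4:**
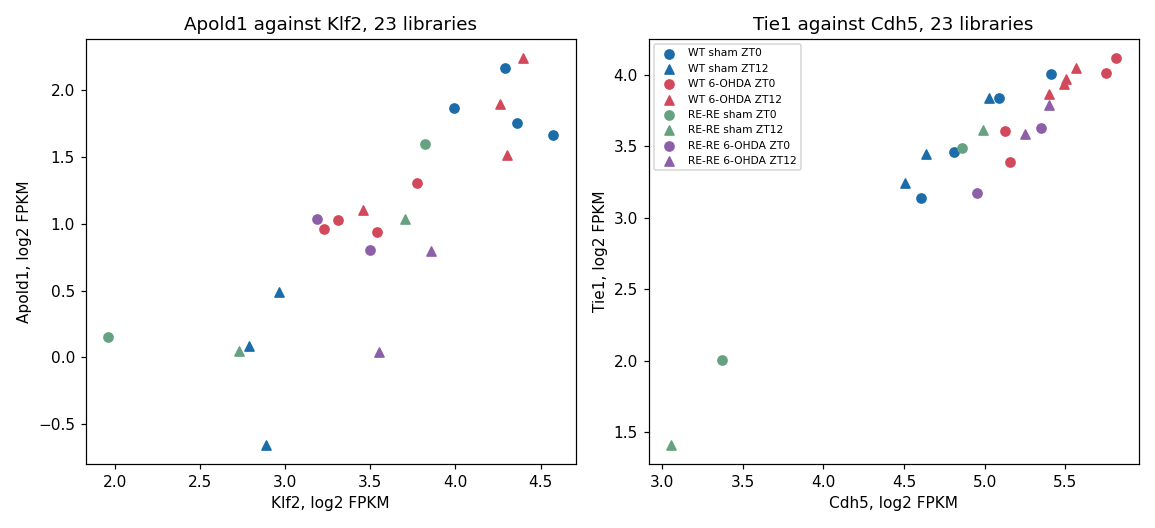
Log2 FPKM of Apold1 against Klf2 (left) and of Tie1 against Cdh5 (right) in the 23 libraries, 1 point per library, coloured by genotype and treatment, with circles for ZT0 and triangles for ZT12. RE-RE sham libraries 1 and 3 lie at the low end of the right panel, at 10.4 and 8.31 FPKM of Cdh5.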

How the data were processed

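Total RNA of tibialis anterior muscle was sequenced as pairs in 23 libraries, and each library was placed in 1 of 8 groups by its label. The submitters' processing notes name the build GRCm38 and the tools featureCounts 1.6.2, HISAT2 2.1.0, edgeR 3.30.0, Trim Galore 0.5.0 and FastQC 0.11.8. The deposited table holds log2 values, log2(FPKM + 0.01), from -6.64 at an FPKM of 0 to 16.6. Whether a factor between libraries was applied is not given in the sources used here. GENCODE M21 gave symbols, positions and exon lengths for 14428 of 14500 genes.

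The members and gene lists were chosen with earlier results of these data known. Of 169 list genes 160 were in the table. The model (limma 3.58.1, R 4.3.3) took the log2 values unaltered, gave each group its own mean and used a trended variance. Benjamini-Hochberg adjustment ran over the 12820 genes that reached 1 FPKM in 2 or more libraries. A gene passed at an adjusted p under 0.05. Means and SD are of linear FPKM, and fold changes are 2 to the log2 difference, which the offset of 0.01 leaves nearly unaltered at these levels. Apold1, Klf2 and Cldn5 were left untested in comparisons of time. They were also left untested in those of 6-OHDA at a single time, where a test of all 10 genes had been planned, because these share the sham libraries. All 10 genes are named, with up to 3 genes of smallest p per list that passed and up to 2 where none did, and the 5 genes of highest r for Apold1, Klf2, Cldn5 and Cdh5.

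Depth was estimated from FPKM steps and exon lengths: in each library 88.8% to 94.3% of values up to 20 reads were whole within 0.1 read. The recovered total was 0.839 to 1.52 times the total that the FPKM scale implies, so scaling by own totals was an alternative. Further settings were quantile normalization, an offset of 1 before the log, no filter or a stricter one (mean log2 FPKM of 1), differences relative to the pan-endothelial mean, array weights, age, a replicate block, only the compared groups, and leaving out libraries. Deviations of same-numbered RE-RE sham and 6-OHDA libraries had r of 0.101 to 0.165, all above 0.1, in 4 pairs. With 2 libraries in a group both pairs of a time give the same r, so these are 2 values. The ages of the pairs differed, at 10 and 16, 11 and 12, 11 and 15, and 11 and 18 weeks. Same-numbered RE-RE libraries therefore did not come from the same mouse. The fit was tested on simulated data. Batches, isoforms and raw reads were not analysed here.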

Additional observations from a re-analysis of the deposited data

Results flagged for a closer look

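Klf2 in wild-type 6-OHDA muscle at ZT12 had 1 library far from the others: library 8 was at 11.0 FPKM, where libraries 5, 6 and 7 were at 19.7, 19.2 and 21.0. The gap was larger than the critical value for 4 samples, and 30 sets of 4 libraries were checked, of which chance marks about 1 in 20. Library 8 was also the lowest of its group for Apold1 and Klf4, at 2.14 and 5.64 FPKM, and the highest for no gene of this set.

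Apold1 and Klf2 differed between 6-OHDA and sham muscle in opposite directions at the times of day. All ZT0 libraries moved down and all ZT12 libraries up, and the effects differed by 2.52 log2 units for Apold1 and 2.07 for Klf2. The difference was not tested, because both genes were picked for a time difference in the same libraries. Age also differed between the times in 6-OHDA muscle, at 15 to 16 weeks for ZT0 and 12 to 15 weeks for ZT12.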

How the results depend on the processing

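The 12 counts of genes past the test, and the count of group means that moved, took 127 values under the alternatives, of which 31 moved. Counts with all libraries were 1 for time in wild-type sham muscle, 3 for 6-OHDA in wild-type muscle over both times, 1 at ZT0, 0 at ZT12, 3 for 6-OHDA in RE-RE muscle, 1 for genotype in sham muscle and 0 for the other 6. For wild-type sham time the count was 0 with own totals, relative to the pan-endothelial mean, with age as a covariate and with only the compared libraries, and 2 with array weights and without the 3 RE-RE libraries. For 6-OHDA in wild-type muscle over both times it was 5 with own totals and with array weights, and 1 relative to the pan-endothelial mean. At ZT0 it was 2 with log2(FPKM + 1), quantile normalization, own totals and only the compared libraries, and 3 with array weights and without the 3 RE-RE libraries. At ZT12 it was 6 with array weights, 5 with only the compared libraries and 4 without the 3 RE-RE libraries. For 6-OHDA in RE-RE muscle it was 6 with own totals and 0 with array weights, age, only the compared libraries or without the 3 RE-RE libraries. For genotype in sham muscle it was 0 with the same 4 settings and relative to the pan-endothelial mean, which gave 1 for genotype in 6-OHDA muscle. For time in wild-type 6-OHDA muscle it was 2 with array weights. Own totals moved the median of all genes with 6-OHDA from -0.04 to 0.29 in wild-type and from -0.02 to 0.37 in RE-RE muscle, and moved 24 of 80 group means of the genes by over 1 SD. Of 1260 differences of single genes, 24 calls were lost and 40 gained, 6 values given without a test moved by over 1 SD and 1 reversed, Kdr with 6-OHDA in RE-RE muscle, which was 0.11 and was -0.47 relative to the pan-endothelial mean (limma adjusted p = 0.0346). The cause of these moves was not tested. Leaving out 1 library at a time gave counts of 0 to 6 for 6-OHDA in RE-RE muscle, 3 to 4 in wild-type muscle, 0 to 4 for genotype in sham and 0 to 1 in 6-OHDA muscle. It gave 0 to 3 for the genotype difference in the effect of 6-OHDA, 0 to 1 for time in wild-type sham and in RE-RE 6-OHDA muscle, and no move elsewhere. Where that left 1 library in a group, it was assumed to vary like the other groups. Replicate numbers did not pair the wild-type libraries, where deviations of same-numbered sham and 6-OHDA libraries had r of -0.123 to 0.0657 in 7 pairs. Same-numbered libraries of both genotypes differed in age, except wild-type number 7, so outside that pair the block joined different mice. With the replicate block the counts were 4 for wild-type and 4 for RE-RE muscle, with Apold1 (0.55, limma adjusted p = 0.0286) and Nos3 (0.82, 0.0481) gained, and the times share no numbers, so no block was fitted there.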
